A study of Mus musculus with 15 samples.

Results

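Of 33 genes listed by name as transcripts of neurons and oligodendrocytes, 32 were measured among the 19938 genes of mouse choroid plexus arrays. They comprised 24 neuronal genes and 8 oligodendrocyte genes. A gene was included when a probe set of the array carried its symbol alone, and the probe set with the highest mean stood for the gene, with no filter on low values. Each of the 32 had 1 such probe set. Grin1, the remaining listed gene, was not analysed here. The list was drawn up with earlier results of these arrays known, so its values describe neural RNA in the samples and its choice supports nothing by itself.

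Neurons release transmitter from synaptic vesicles, and the machinery for this (Snap25, Syt1, Syp, Cplx1) is carried by nearly every neuron. Other genes mark particular neurons: Gabra6 and Cbln3 belong to the granule cells of the cerebellum and Calb1 and Pcp2 to its Purkinje cells. Oligodendrocytes wrap axons in myelin and make its proteins (Mbp, Mobp, Mag, Mog, Cnp, Mal). The choroid plexus is a secretory epithelium over a vascular stroma and has no neurons or myelin of its own in textbook descriptions. Its part in the fourth ventricle lies beneath the cerebellum.

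The series compared mice with 2, 1 or no working copies of Add1, which encodes alpha-adducin, a protein that joins spectrin to actin at the cell membrane. Groups were 5 wild-type, 5 heterozygous and 5 null samples, all C57BL/6J, labelled male and 3 weeks old, an age chosen to precede hydrocephalus. All 15 samples were dissected choroid plexus and none was treated. The design text speaks of 5 mice for each genotype, and its wording does not settle whether the fourth or all ventricles were taken. Nothing in the labels says where the allele is deleted or whether its loss is limited to one cell type. RNA was labelled from 250 ng per sample and read on 1 array each.

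Values are log2 and lay between 1.57 and 13.89, with array medians from 4.78 to 4.88. The single Add1 probe set read 7.78 to 8.04 in wild-type, 7.68 to 7.92 in heterozygous and 7.41 to 7.76 in null arrays. Its null range lay below its wild-type range, but a probe set outside the deleted part would check nothing. Null arrays 1 and 5 went against the label male: Xist, the RNA of the inactive X chromosome, read 9.09 to 9.69 there and 3.11 to 3.88 in the other 13 arrays. Their Y-linked Eif2s3y, Uty and Kdm5d read 3.19 to 4.27, against 6.92 to 7.95. All 12 choroid epithelial markers measured were above 5.31, the median of all values, in all 15 arrays, with Ttr, the transthyretin secreted into cerebrospinal fluid, at 12.85 to 13.19. Of the 32 neural genes, 20 passed that value in at least 5 arrays (13 neuronal and 7 oligodendrocyte), as did 10109 of all genes. A bulk sample cannot tell fewer cells of a type from less RNA per cell, and differences near background are compressed on arrays.

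Heterozygous array 1 stood apart from every other array in neural transcripts. It was the highest of the 15 arrays for 28 of the 32 genes, where 12.9% of all genes were highest there. For 7 of them it was highest by at least 1 log2 unit, which held for 68 of all genes (0.341%): Snap25, Gabra6, Cbln1, Cbln3, Calb1, Neurod1 and Slc17a7, all neuronal. The median gene of the list was 1.14 log2 units, or 2.20-fold, above the mean of the other 4 heterozygous arrays, and the median of all genes was 0. By class, this median was 2.06 for 7 cerebellar genes, 1.46 for 9 pan-neuronal genes, 1.15 for 5 transmitter genes, 1.09 for 8 oligodendrocyte genes and 0.28 for 3 forebrain-rich genes. The 4 genes for which the array was not highest were Slc17a6, Nrgn, Tubb3 and Olig2.

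**Figure D1:**
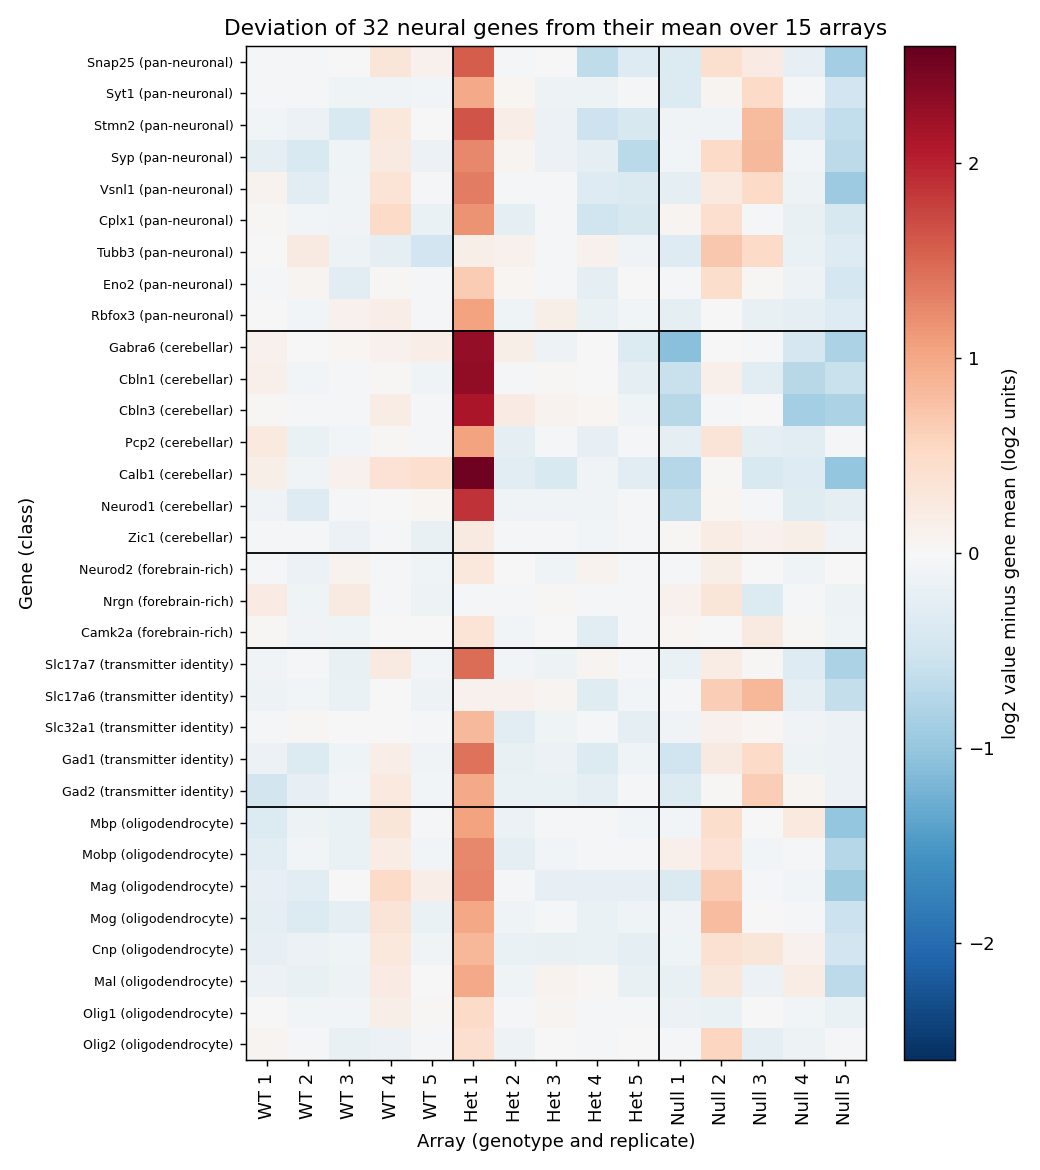
Deviation of each of the 32 neural genes (vertical axis, with class) from its own mean over the 15 arrays (horizontal axis, genotype and replicate), in log2 units; red is above and blue below the mean, and black lines separate genotypes and classes. The column of heterozygous array 1 is red for 31 of the 32 genes and darkest among the cerebellar genes, and the column of null array 5 lies below the mean for all 32.

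Among the cerebellar genes, the measured gap was widest for Calb1, the calcium-binding protein calbindin of Purkinje cells. Calb1 read 5.46, 5.22, 5.42, 5.68 and 5.75 in wild-type arrays 1 to 5, 7.83, 5.04, 4.92, 5.22 and 5.01 in heterozygous arrays 1 to 5, and 4.56, 5.34, 4.92, 4.98 and 4.30 in null arrays 1 to 5. Heterozygous array 1 was 6.88-fold above the mean of the other 4 heterozygous arrays as measured, but those 4 were all below 5.31, so the size of the fold is uncertain. Null arrays 1 and 5 were the lowest. Gabra6, the alpha-6 subunit of the GABA-A receptor on granule cells, read 5.63, 5.49, 5.56, 5.62 and 5.69 in wild type, 7.80, 5.67, 5.38, 5.52 and 5.15 in heterozygotes and 4.42, 5.50, 5.45, 5.08 and 4.68 in null arrays, in the same order. The 5 wild-type values lay within 0.20 of each other, while the null arrays divided into 2 near the wild-type level and 3 below it.

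Cbln1 and Cbln3 encode cerebellins, proteins that granule cells secrete at their synapses onto Purkinje cells. Cbln1 read 5.81, 5.60, 5.64, 5.70 and 5.56 in wild type, 7.97, 5.63, 5.69, 5.66 and 5.43 in heterozygotes, and 5.10, 5.80, 5.40, 4.95 and 5.10 in null arrays. Cbln3 read 5.82, 5.75, 5.75, 5.99 and 5.74 in wild type, 7.91, 6.00, 5.89, 5.83 and 5.68 in heterozygotes, and 5.07, 5.75, 5.80, 4.90 and 4.96 in null arrays. Both were lowest in null arrays 1, 4 and 5, as was Gabra6, and both were in the wild-type range in null array 2. Pcp2, a Purkinje cell protein, and Neurod1, a transcription factor of granule cells, reached 5.95 and 6.14 in heterozygous array 1 and at most 5.24 and 4.31 elsewhere.

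Zic1, a zinc finger transcription factor of granule cells and of the meninges, differed from the rest of its class. It read 8.53, 8.55, 8.43, 8.55 and 8.38 in wild type, 8.81, 8.54, 8.53, 8.50 and 8.55 in heterozygotes, and 8.61, 8.78, 8.69, 8.73 and 8.49 in null arrays. Its excess in heterozygous array 1 was 1.21-fold, and 4 of the 5 null arrays lay above every wild-type array.

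Among pan-neuronal genes the excess in heterozygous array 1 was 3.64-fold for Stmn2, a tubulin-binding protein of growing axons, and 3.54-fold for Snap25, a SNARE protein of vesicle fusion. Stmn2 read 5.09, 5.01, 4.78, 5.45 and 5.18 in wild type, 6.80, 5.34, 5.02, 4.63 and 4.75 in heterozygotes, and 5.07, 5.07, 5.99, 4.84 and 4.52 in null arrays. Snap25 read 6.10, 6.10, 6.16, 6.46 and 6.26 in wild type, 7.72, 6.11, 6.17, 5.49 and 5.81 in heterozygotes, and 5.79, 6.56, 6.36, 5.93 and 5.26 in null arrays. Both were lowest in null array 5, and Stmn2 had its second peak in null array 3. The mean of Stmn2 in the other 4 heterozygotes, 4.94, was also below 5.31.

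The calcium sensor Vsnl1 and the vesicle membrane protein Syp, synaptophysin, shared that second peak. Vsnl1 read 6.38, 5.99, 6.21, 6.64 and 6.24 in wild type, 7.62, 6.27, 6.27, 5.95 and 5.92 in heterozygotes, and 6.05, 6.54, 6.79, 6.17 and 5.35 in null arrays. Syp read 5.90, 5.76, 6.04, 6.39 and 6.01 in wild type, 7.40, 6.23, 6.00, 5.90 and 5.46 in heterozygotes, and 6.09, 6.65, 7.01, 6.08 and 5.47 in null arrays. In null array 3, Syp was thus 0.39 below its value in heterozygous array 1, while Gabra6 and Cbln1 were 2.35 and 2.57 below theirs.

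Tubb3, the neuronal beta-tubulin, followed the other genes least in its class. It read 4.07, 4.31, 3.95, 3.85 and 3.58 in wild type, 4.24, 4.19, 4.04, 4.20 and 3.99 in heterozygotes, and 3.75, 4.78, 4.58, 3.91 and 3.75 in null arrays, and was below 5.31 in every array. The other pan-neuronal genes each peaked in heterozygous array 1: the calcium sensor Syt1 at 7.67, the complexin Cplx1 at 7.0 and the enolase Eno2 at 8.08. Elsewhere they reached at most 7.18, 6.33 and 7.89. The RNA-binding protein Rbfox3 (NeuN) read 4.84, 4.78, 4.96, 5.02 and 4.80 in wild type, 5.88, 4.74, 4.99, 4.68 and 4.77 in heterozygotes, and 4.6, 4.84, 4.65, 4.6 and 4.51 in null arrays, and was above 5.31 in heterozygous array 1 alone.

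Of the 5 transmitter genes, Slc17a6 and Slc32a1 were above 5.31 in 1 array each and Gad2 in 2. Slc17a7 and Slc17a6 encode the vesicular glutamate transporters VGLUT1, which granule cells use, and VGLUT2. Slc17a7 read 5.21, 5.25, 5.11, 5.54 and 5.23 in wild type, 6.75, 5.24, 5.18, 5.38 and 5.25 in heterozygotes, and 5.13, 5.50, 5.34, 4.96 and 4.48 in null arrays. Slc17a6 read 4.5, 4.56, 4.45, 4.63 and 4.49 in wild type, 4.74, 4.73, 4.69, 4.31 and 4.56 in heterozygotes, and 4.59, 5.27, 5.50, 4.39 and 4.0 in null arrays. The 2 transporters had different peaks: Slc17a7 was 2.80-fold higher in heterozygous array 1 than in the other heterozygotes, and Slc17a6 was 1.12-fold higher and peaked in null arrays 2 and 3.

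Gad1 and Gad2 make the transmitter GABA and Slc32a1 loads it into vesicles. Gad1 read 5.40, 5.20, 5.45, 5.72 and 5.46 in wild type, 6.96, 5.36, 5.41, 5.20 and 5.45 in heterozygotes, and 5.04, 5.78, 6.05, 5.43 and 5.41 in null arrays. Gad2 read 4.32, 4.57, 4.72, 5.05 and 4.72 in wild type, 5.78, 4.62, 4.63, 4.54 and 4.74 in heterozygotes, and 4.44, 4.82, 5.44, 4.86 and 4.64 in null arrays. Both peaked in heterozygous array 1 and had their next highest value in null array 3. Slc32a1 read 5.12, 5.17, 5.13, 5.16 and 5.12 in wild type, 5.98, 4.87, 5.04, 5.09 and 4.91 in heterozygotes, and 5.05, 5.26, 5.19, 5.05 and 5.0 in null arrays, so that heterozygous arrays 2 to 5 lay just below all wild-type arrays.

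Genes richest in forebrain neurons moved little. Camk2a, a calcium-dependent kinase of forebrain synapses, read 4.41, 4.28, 4.26, 4.36 and 4.36 in wild type, 4.73, 4.31, 4.36, 4.08 and 4.35 in heterozygotes, and 4.43, 4.36, 4.61, 4.41 and 4.27 in null arrays. Neurod2, a transcription factor of cortical neurons, read 5.23, 5.14, 5.38, 5.25 and 5.18 in wild type, 5.55, 5.29, 5.17, 5.38 and 5.26 in heterozygotes, and 5.24, 5.44, 5.29, 5.18 and 5.27 in null arrays. Their excess in heterozygous array 1 was 1.37-fold and 1.21-fold. Nrgn, the calmodulin-binding neurogranin, read 4.80, 4.48, 4.82, 4.55 and 4.47 in wild type, 4.57, 4.57, 4.63, 4.57 and 4.57 in heterozygotes, and 4.70, 4.91, 4.24, 4.57 and 4.47 in null arrays. It showed no peak in heterozygous array 1, and both Nrgn and Camk2a were below 5.31 in all arrays.

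The myelin genes also peaked in heterozygous array 1, with excesses of 2.70-fold for Mag, an adhesion molecule facing the axon, and 2.55-fold for Mobp, a basic protein of compact myelin. Mag read 5.54, 5.48, 5.77, 6.24 and 5.92 in wild type, 7.01, 5.70, 5.54, 5.53 and 5.54 in heterozygotes, and 5.37, 6.41, 5.70, 5.68 and 4.82 in null arrays. Mobp read 5.15, 5.37, 5.27, 5.65 and 5.37 in wild type, 6.69, 5.19, 5.38, 5.39 and 5.39 in heterozygotes, and 5.59, 5.83, 5.37, 5.39 and 4.70 in null arrays. Null array 2 and wild-type array 4 followed at some distance, and null array 5 was lowest.

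Mbp, the main basic protein of myelin, and Mog, a glycoprotein of its outer surface, had the same order at the top. Mbp read 6.95, 7.17, 7.14, 7.63 and 7.26 in wild type, 8.36, 7.16, 7.27, 7.27 and 7.24 in heterozygotes, and 7.24, 7.76, 7.29, 7.57 and 6.31 in null arrays. Mog read 5.42, 5.32, 5.44, 6.01 and 5.50 in wild type, 6.69, 5.57, 5.66, 5.51 and 5.57 in heterozygotes, and 5.59, 6.48, 5.70, 5.63 and 5.13 in null arrays. For Mog, null array 2 was within 0.21 of heterozygous array 1, a gap that was 2.30 for Gabra6.

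The myelin enzyme Cnp read 6.90, 6.97, 7.02, 7.40 and 7.04 in wild type, 7.99, 6.95, 6.92, 6.95 and 6.88 in heterozygotes, and 7.02, 7.51, 7.44, 7.23 and 6.62 in null arrays. The membrane protein Mal and the transcription factor Olig1 peaked in heterozygous array 1 at 7.62 and 6.23, against at most 6.94 and 5.89 elsewhere. Olig2, the lineage factor of oligodendrocytes, read 4.20, 4.09, 3.93, 3.97 and 4.08 in wild type, 4.57, 4.0, 4.11, 4.10 and 4.11 in heterozygotes, and 4.08, 4.68, 3.88, 4.0 and 4.09 in null arrays. It was the only oligodendrocyte gene whose highest array was null array 2, and it was below 5.31 in all arrays.

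**Figure D2:**
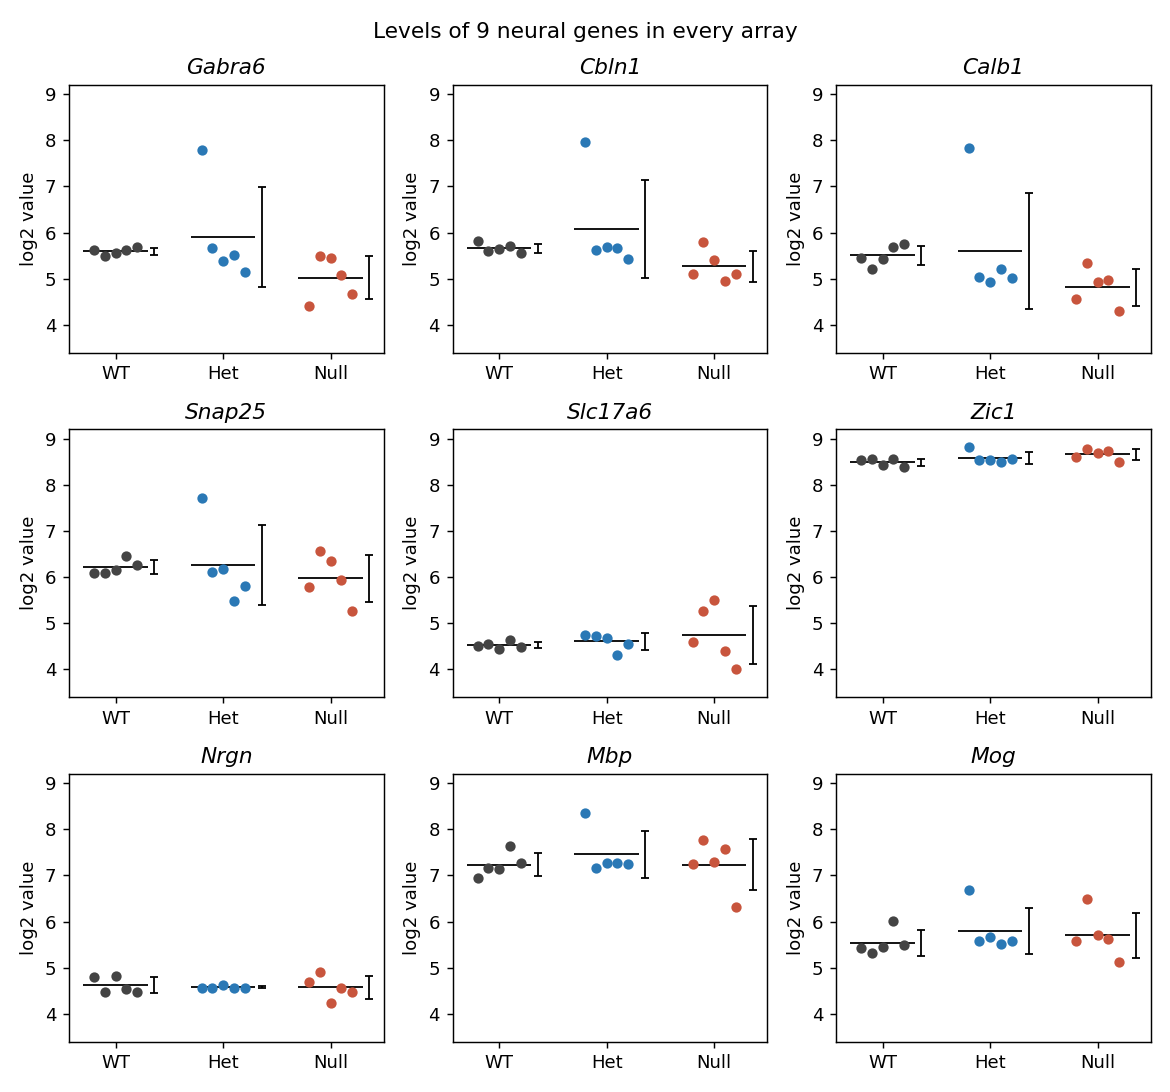
Log2 values (vertical axis) of 9 neural genes in each array, grouped by genotype with 5 arrays each; points run from array 1 at the left to array 5 at the right, the line is the group mean and the bar the SD. Heterozygous array 1 lies above the other 14 arrays for Gabra6, Cbln1, Calb1, Snap25, Zic1, Mbp and Mog, and not for Slc17a6 and Nrgn.

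Cerebellar and myelin genes shared the peak in heterozygous array 1, and promoter sequences are shown for 3 genes of these classes with large excesses there. Over the other 14 arrays the scores of the 2 classes had a Pearson correlation of 0.550 (Spearman rho 0.288), so the shared movement rests largely on that array. They are RefSeq sequences of build GRCm38.p6, from 250 bases before to 50 after the gene start, 5′ to 3′ on the gene's strand. The Gabra6 window lies at chr11:42321023-42321322 (minus strand), that of Cbln3 at chr14:55884207-55884506 (minus strand) and that of Mobp at chr9:120149492-120149791 (plus strand). Capitals mark matches to the motifs described after the sequences.
Gabra6: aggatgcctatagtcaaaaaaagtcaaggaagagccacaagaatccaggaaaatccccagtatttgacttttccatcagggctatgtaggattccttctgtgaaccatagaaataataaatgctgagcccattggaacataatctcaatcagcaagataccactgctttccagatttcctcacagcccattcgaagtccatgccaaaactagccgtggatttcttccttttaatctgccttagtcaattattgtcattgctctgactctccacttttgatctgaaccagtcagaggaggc
Cbln3: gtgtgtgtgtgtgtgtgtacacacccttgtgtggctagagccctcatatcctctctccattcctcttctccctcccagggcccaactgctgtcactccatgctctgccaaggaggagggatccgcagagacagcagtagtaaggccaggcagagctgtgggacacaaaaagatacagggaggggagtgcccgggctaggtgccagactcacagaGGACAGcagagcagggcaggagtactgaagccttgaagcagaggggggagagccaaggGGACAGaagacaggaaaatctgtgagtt
Mobp: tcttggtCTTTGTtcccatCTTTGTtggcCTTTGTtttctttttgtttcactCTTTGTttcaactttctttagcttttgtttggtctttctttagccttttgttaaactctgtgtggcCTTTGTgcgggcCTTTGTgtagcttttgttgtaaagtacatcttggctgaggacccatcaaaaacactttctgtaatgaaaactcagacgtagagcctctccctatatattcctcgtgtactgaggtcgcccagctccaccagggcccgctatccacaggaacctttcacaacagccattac

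For a description, 4 short motifs were searched on both strands of 32851 promoters, in which 25 of the 32 genes had 33 entries. CAGATG, an E-box bound by NeuroD factors, was in 17.2% of all promoters and in 7 of the 33 entries, from 6 genes. The left part of RE1, the element of the neuronal repressor REST, was taken as TTCAGCACC and its right part as GGACAG. The first was in 0.371% of all promoters and in 0 of the 33 entries, the second in 22.2% and in 11 entries, from 10 genes. ACAAAG, a motif of SOX factors such as the oligodendrocyte factor Sox10, was in 18.7% and in 8 entries, from 7 genes. The capitals of Cbln3 are 2 matches to GGACAG, and those of Mobp are 6 matches to ACAAAG on the opposite strand. Only 1 of the 32851 promoters, that of Mobp itself, held as many matches to ACAAAG. The Gabra6 window held none of these motifs, and a match describes letters, not binding.

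The remaining arrays differed from one another by less, and not in the same classes. The score of an array, the mean deviation of all 32 genes from their means over the arrays, was 1.09 in heterozygous array 1. It lay between -0.16 and -0.06 in the other 4 heterozygotes, between -0.12 and 0.15 in wild type and between -0.49 and 0.26 in null arrays. Null array 5 was below the mean for all 32 genes and the lowest array for 16 of them, where 8.95% of all genes were lowest there. The means include heterozygous array 1, and heterozygous array 5 and wild-type array 2 were above them for only 1 and 3 genes. The summed level of null array 5 is reported beside its Xist signal, and their relation was not tested.

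Null array 2 was high in every class and most in oligodendrocyte genes (0.42). It was the highest array for 3 genes of the list, where 16.5% of all genes were highest there, the largest share of any array. How far its scores reflect a shift across all genes was not tested. Null array 3 was high in pan-neuronal genes (0.35) and transmitter genes (0.42), but not in cerebellar genes (-0.13) or oligodendrocyte genes (-0.03). Null arrays 1, 4 and 5 were low in cerebellar genes (-0.56, -0.40 and -0.52). Wild-type array 4 was the highest wild-type array, with 0.23 in oligodendrocyte and 0.17 in pan-neuronal genes. In heterozygous arrays 4 and 5 the pan-neuronal score was -0.31 and -0.27, below all wild-type arrays, and the cerebellar score was -0.06 and -0.16.

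**Figure D3:**
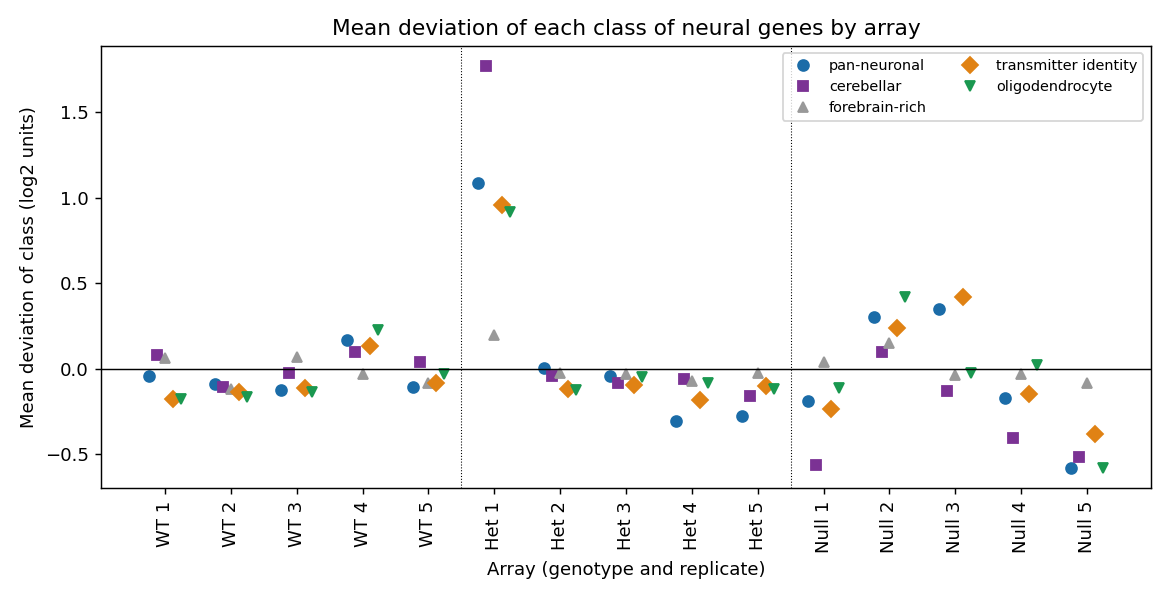
Mean deviation of each class of genes from the gene means over 15 arrays (vertical axis, log2 units) in each array (horizontal axis); symbols stand for the classes. The cerebellar score is 1.77 in heterozygous array 1 and -0.56, -0.40 and -0.52 in null arrays 1, 4 and 5, while the pan-neuronal and transmitter scores are high in null array 3.

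Most genes of the list varied together. Over the 15 arrays the median Pearson correlation of a gene with the mean deviation of the other 31 was 0.889, and 24 of the 32 exceeded 0.8. The highest was Snap25 at 0.96, followed by Slc17a7 at 0.96, and the lowest were Slc17a6 at 0.45, Tubb3 at 0.40 and Nrgn at 0.04. Much of this was set by 1 array: without heterozygous array 1 the median was 0.624 over 14 arrays, and 6 genes exceeded 0.8. Those genes were Vsnl1 (0.91), Snap25 (0.91), Mag (0.90), Cnp (0.85), Slc17a7 (0.84) and Mog (0.81). After subtraction of each genotype's mean the median over 15 arrays was 0.907. Genes measured on the same arrays share their labelling and normalization, so these correlations are descriptions.

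Across classes, the scores of neuronal and oligodendrocyte genes had a Pearson correlation of 0.914 over 15 arrays (Spearman rho 0.546), 0.782 without heterozygous array 1 (rho 0.442) and 0.639 over 13 arrays without null array 5 as well (rho 0.302). Pan-neuronal and transmitter scores kept a correlation of 0.899 over those 13 arrays. Cerebellar and pan-neuronal scores had 0.596 over the 14 arrays without heterozygous array 1.

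The genes outside the list that followed it most closely over 15 arrays were Sez6l2, a neuronal membrane protein (0.984), and Dnm1, the dynamin of synaptic vesicle recycling (0.984). Next came Stmn3 (0.975), Cntnap1, a protein of the axon beside the node of Ranvier (0.971), Kcnd2 (0.969), Thy1 (0.964), Tagln3 (0.964), Gria4 (0.964), Olfm3 (0.963) and Gnao1 (0.961). Gria4, an AMPA-type glutamate receptor subunit, read 7.29 in heterozygous array 1 and 4.03 to 5.19 in the other arrays. Without heterozygous array 1 the 10 closest were Sez6l2 (0.950), Dnm1 (0.944), Stmn3, Cntnap1, Kcnc1, Kcnd2, Ehd4, Thy1, Mapt and Gnao1, of which 7 were among the first 10. The number of genes outside the list with a correlation over 0.8 was 340 with that array and 41 without it.

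Further neuronal and cerebellar genes, from longer lists, mostly peaked in the same array, and a smaller share of further oligodendrocyte genes did. The share of all genes highest there was 12.9%. Heterozygous array 1 was the highest for 18 of 24 other neuronal genes, 13 of 16 other cerebellar genes, 7 of 19 other oligodendrocyte genes and 5 of 13 astrocyte genes. The median excess over the other 4 heterozygotes was 0.86 for the other neuronal, 1.15 for the other cerebellar and 0.20 for the other oligodendrocyte genes, the last against 1.09 for the 8 of the list. The mean deviation of the other oligodendrocyte genes was 0.27 there and 0.19 in the next highest array. Of these lists, 8 of 24 neuronal, 4 of 16 cerebellar and 4 of 19 oligodendrocyte genes passed 5.31 in at least 5 arrays. Among the 8 oligodendrocyte genes of the main list 7 did, so the 2 oligodendrocyte medians compare genes of unlike level. Heterozygous array 1 was highest for 0 of 12 choroid epithelial genes, whose mean deviation was -0.09 there and -0.07 to 0.06 elsewhere. The astrocyte list was also high in null arrays 3 (0.62) and 4 (0.49), against 0.72 in heterozygous array 1, so it did not rank the arrays as the neuronal genes did. Aldoc, an aldolase of astrocytes and Purkinje cells, read 10.37 in heterozygous array 1 with a median over all arrays of 8.48. From the same list, Sox9, Aldh1l1 and Gjb6 read 8.61, 8.64 and 5.28 there, below their medians of 8.88, 8.68 and 5.34. Of 9 Hox genes of the hindbrain, Hoxb3 was above 5.31 in all 15 arrays and Hoxa4 in 8, and the others in none. Of 5 position genes of the forebrain, Emx1 was above it in all 15 arrays (5.51 to 6.24) and the others in none. The mean deviation of the Hox genes was 0.24 and 0.22 in null arrays 3 and 2 and -0.002 in heterozygous array 1.

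Genotype differences were tested with limma over all 19938 genes, with Benjamini-Hochberg adjustment and a threshold of 0.05. The p-values measure the spread between these samples, 1 array for each mouse. Null against wild type asks what loss of Add1 changes before hydrocephalus, heterozygous against wild type whether loss of 1 copy does, and null against heterozygous what the second copy adds. The 3 comparisons share arrays. Each sample's description also carries a number whose meaning is not stated, and its whole part is called the label number here. No null array shared its label number with a wild-type array, while some arrays within a group shared one. What the number stands for and genotype therefore cannot be told apart between null and wild type. The main fit treated all arrays as independent.

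Between null and wild type, 0 of the 32 neural genes passed, where 523 of all genes did (2.62%), and 1 had an unadjusted p under 0.05, as did 15.2% of all genes. That gene was Zic1, at 8.49 ± 0.08 in wild type and 8.66 ± 0.11 in null (SD, n = 5 each; log2 difference 0.17, SE 0.07, adjusted p = 0.233). The median difference of the list was -0.02, with 15 genes above 0. The cerebellar median was -0.39, against -0.004 for pan-neuronal, 0.05 for forebrain-rich, 0.10 for transmitter and 0.01 for oligodendrocyte genes. Calb1 was 5.51 ± 0.21 in wild type and 4.82 ± 0.40 in null (log2 difference -0.69, SE 0.40, adjusted p = 0.460). For no gene did the 2 groups fail to overlap, where the null group lay wholly above wild type for 2.11% and wholly below for 1.38% of all genes.

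Between heterozygous and wild type, 0 neural genes and 0 of all genes (0%) passed, and at an unadjusted p under 0.05 there were 0 neural genes and 881 of all genes (4.42%). Yet 30 of the 32 genes had a difference above 0, with a median of 0.13, and the group mean includes array 1. Gabra6 was 5.60 ± 0.08 in wild type and 5.90 ± 1.08 in heterozygotes, and 5.43 ± 0.22 in the 4 heterozygotes without array 1. Snap25 was 6.22 ± 0.15, 6.26 ± 0.86 and 5.90 ± 0.31 in the same groups. Without array 1 the median was -0.04, with 11 genes above 0, and 19 of the 32 genes changed sign. In that fit 0 neural genes and 0 of all genes (0%) passed. At an unadjusted p under 0.05 there were 3 of the 32 neural genes and 674 of all genes (3.38%). These 3 were Calb1 (log2 difference -0.46, SE 0.16), Cplx1 (-0.34, SE 0.15) and Slc32a1, each with an adjusted p of 0.999. Slc32a1 then lay wholly below wild type (4.98 ± 0.10 against 5.14 ± 0.02, log2 difference -0.16, SE 0.07, adjusted p = 0.999), as did 0.401% of all genes.

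Between null and heterozygous, 0 neural genes passed, where 500 of all genes did (2.51%), and 5 had an unadjusted p under 0.05, as did 18.1% of all genes. The median difference was -0.20 with 6 genes above 0. Without heterozygous array 1 it was 0.04 with 21 genes above 0, 0 neural genes and 294 of all genes (1.47%) passed. The difference of Cbln3 was -0.97 (SE 0.31, adjusted p = 0.107) with all arrays and -0.55 (SE 0.16, adjusted p = 0.0940) without that array.

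The neural genes had a larger residual spread than genes in general, and 1 array contributed much of it. Their median residual SD was 0.416 with all arrays and 0.263 without heterozygous array 1, against 0.122 and 0.119 for all genes. Leaving that array out does not alter the null or wild-type values, but it narrowed the errors of their difference. Calb1 then fell in null against wild type (log2 difference -0.69, SE 0.15, adjusted p = 0.0175), the only one of the 32 to pass, where 604 of all genes did (3.03%). Its null and wild-type arrays overlapped, with the highest null array at 5.34 and the lowest wild-type array at 5.22. Its null mean, 4.82, was below 5.31. Between null and heterozygous in the same fit, the Calb1 difference was -0.23 (adjusted p = 0.528). Gabra6 (-0.57, adjusted p = 0.0684), Cbln3 (-0.51, adjusted p = 0.0727), Cbln1 (-0.39, adjusted p = 0.0888) and Rbfox3 (-0.24, adjusted p = 0.0943) did not pass. When null arrays 1 and 5, those with Xist signal, were left out as well, Calb1 did not pass either (-0.43, adjusted p = 0.0896), and the Gabra6 difference was -0.25 (adjusted p = 0.299). With only the null and wild-type arrays fitted, which also leaves out heterozygous array 1, Calb1 did not pass (-0.69, SE 0.16, adjusted p = 0.0572).

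**Figure D4:**
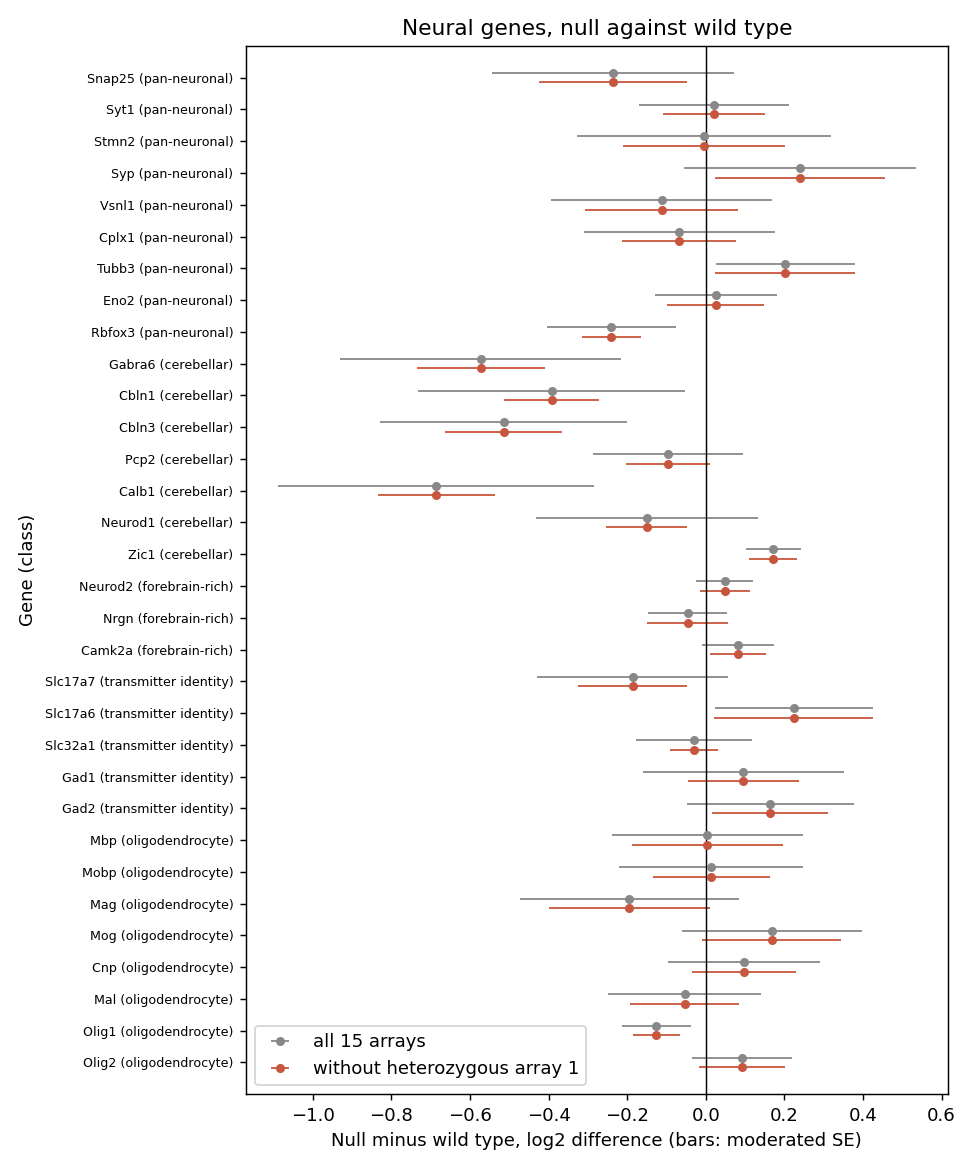
Log2 difference of null minus wild type (horizontal axis) for each of the 32 neural genes (vertical axis, with class); points are estimates and bars moderated standard errors, in grey from all 15 arrays and in red without heterozygous array 1. The estimates are the same in both fits and the errors narrower in red for most genes; Calb1 lies at -0.69, and Gabra6, Cbln3 and Cbln1 at -0.57, -0.51 and -0.39.

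The score of all 32 genes was also entered as a covariate, to ask how far genotype differences depend on the neural content of each array. With it, 725 of all genes passed between null and wild type (3.64%), including all 523 that passed without it. The counts were 0 between heterozygous and wild type (0%) and 427 between null and heterozygous (2.14%), of which 369 were among the 500. Of the neural genes, Calb1 (-0.56, adjusted p = 0.0266), Cbln3 (-0.41, adjusted p = 0.0163) and Gabra6 (-0.46, adjusted p = 0.0472) then fell in null against wild type, and Cbln3 fell against heterozygous (-0.60, adjusted p = 0.00386). These genes are part of the score that adjusted them. With the oligodendrocyte score alone as the covariate, which holds none of them, Calb1 (-0.69, adjusted p = 0.0384) passed against wild type and Cbln3 (-0.73, adjusted p = 0.0338) against heterozygous.

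With heterozygous array 1 left out and the score of all genes entered, 759 of all genes passed between null and wild type (3.81%). The 4 neural genes among them were Calb1, Cbln3, Gabra6 and Cbln1, all lower in null, at -0.61, -0.43, -0.49 and -0.34. Their null means were 4.82, 5.30, 5.03 and 5.27, all below 5.31, which limits what these differences show. Pcp2, Neurod1 and Zic1, the other cerebellar genes, did not pass. Without a covariate their differences were -0.10, -0.15 and 0.17, and Pcp2 and Neurod1 were above 5.31 in 1 array each. Between null and heterozygous 454 of all genes passed (2.28%) and Cbln3 alone of the list (-0.57, adjusted p = 0.00550). With the oligodendrocyte score in place of the score of all genes, Rbfox3 also passed between null and wild type (-0.24, adjusted p = 0.0433). Rbfox3 was above 5.31 in heterozygous array 1 alone, which limits what this difference shows. No pan-neuronal gene other than Rbfox3 and no transmitter, forebrain-rich or oligodendrocyte gene passed between null and wild type in any of these fits.

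Genes of the other neuronal, cerebellar and oligodendrocyte lists gave a mixed picture between null and wild type. In the main fit 1 of 24 neuronal, 0 of 16 cerebellar and 2 of 19 oligodendrocyte genes passed, where 2.62% of all genes did. Without heterozygous array 1, 2 cerebellar genes passed as lower and 2 oligodendrocyte genes as higher. Of the neuronal genes, Nefh then passed as lower and Meg3 as higher (0.80, adjusted p = 0.0317). In that fit 3.03% of all genes passed. Car8 and Pvalb, both expressed by Purkinje cells, passed only without heterozygous array 1 of the 15 fits that left out 1 array (-0.74, adjusted p = 0.00516, and -0.50, adjusted p = 0.0133). Nefh, the heavy neurofilament subunit, fell from 7.09 ± 0.24 to 5.72 ± 0.40 in all of those fits (-1.53 to -1.26), and read 7.11 in heterozygous array 1, within 0.10 of the heterozygous mean of 7.01. It therefore did not share the peak of the neuronal genes in that array. From the list of other oligodendrocyte genes, Ermn (0.81) and the iron carrier transferrin, Trf (0.39), rose in null. They were called in 9 and 11 of the 15 fits. Trf read 10.44 in heterozygous array 1, where its group mean was 10.51, and Ermn read 4.81. The wild-type mean of Trf was 10.42, against 7.23 for Mbp, and which cells the Trf RNA came from was not tested. The means of Ermn were 4.39 in wild type and 5.19 in null, and those of Pvalb were 5.19 and 4.68. All of these lie below 5.31, which limits what the differences of Ermn and Pvalb show.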

How the data were processed

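RNA of 15 choroid plexus samples was hybridised to Affymetrix arrays. The deposited values were made with Affymetrix Expression Console 1.1 and RMA, per the submitters' processing notes. They are on a log2 scale, as read from the deposited values' range, since no label names the base. The scanner files were not used here.

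Of 35556 probe sets, 21789 had 1 gene symbol in the platform annotation, 1621 had several and 12146 none or no entry. The highest-mean probe set stood for each of 19938 genes (999 had more than 1). Groups came from the sample titles. Contrasts were fitted on all 15 arrays with limma 3.58.1 (R 4.3.3; lmFit, eBayes, no block), with Benjamini-Hochberg adjustment over all genes, and the code was tested on simulated data.

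The members, their classes and the other lists were chosen with earlier results of these data known. Full values are given for the genes of each class with the largest excess in heterozygous array 1, for those called in any fit and for the gene of each class with the lowest correlation with the others. Genes outside the list were named for their correlation with the score or for a call in another list.

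Alternatives were array weights, a variance trend, median centring, repeated quantile normalization, a filter (5.31, the median of all values, in at least 5 arrays), all probe sets, 2 genotypes at a time, the label number as a random block, the score as a covariate, and arrays left out. Those leaving out heterozygous array 1 together with null arrays, or with the score of the other class, were added after the data were seen. Same-numbered arrays of different genotypes had correlations of their deviations between -0.20 and 0.17, so the numbers do not pair samples. The number of arrays limits the precision.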

Additional observations from a re-analysis of the deposited data

Results flagged for a closer look

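Within each genotype group of 5 arrays, a value was singled out when its gap to the nearest other array, divided by the group's range, exceeded 0.71. Chance alone gives this in about 1 in 20 groups. It applied to 26 of 96 combinations of gene and genotype, and 22 of the 26 were heterozygous array 1.

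In that array the cerebellar genes Calb1 (7.83), Gabra6 (7.80), Cbln1 (7.97), Cbln3 (7.91), Pcp2 (5.95), Neurod1 (6.14) and Zic1 (8.81) were all singled out as high. So were the transmitter genes Slc17a7 (6.75), Slc32a1 (5.98), Gad1 (6.96) and Gad2 (5.78), and the pan-neuronal genes Syt1 (7.67), Vsnl1 (7.62) and Rbfox3 (5.88). All 8 oligodendrocyte genes were: Mbp (8.36), Mobp (6.69), Mag (7.01), Mog (6.69), Cnp (7.99), Mal (7.62), Olig1 (6.23) and Olig2 (4.57). Snap25, Stmn2, Syp, Cplx1, Eno2, Camk2a and Neurod2 were not, although the array was also their highest.

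Outside that array, Mog (6.01) and Cnp (7.40) were high in wild-type array 4, and Olig2 (4.68) was high in null array 2. Nrgn read 4.63 in heterozygous array 3 and 4.57 in each of the other 4 heterozygous arrays.

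Of 21 combinations of score and genotype, 9 met the same rule. In heterozygous array 1 these were the scores of all genes (1.09), neuronal genes (1.15), oligodendrocyte genes (0.919), pan-neuronal genes (1.09), cerebellar genes (1.77), forebrain-rich genes (0.20) and transmitter genes (0.958). In wild-type array 4 they were the scores of all genes (0.145) and of pan-neuronal genes (0.170). What sets these 2 arrays apart was not tested.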

How the results depend on the processing

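No neural gene that was called in a setting had changed direction there from the main fit. Directions over all genes were not compared gene by gene. The count of all genes between null and wild type, 523, was 959 with array weights, 281 with only the 2 genotypes compared, 257 without the null arrays with Xist signal, and 260 to 1060 with 1 array left out. Of the 523, 303 were higher and 220 lower in null; after median centring these were 207 and 390. The count between null and heterozygous, 500, was 800 with array weights, 791 with the filter on low values, 159 with only the 2 genotypes compared, 188 without the null arrays with Xist signal, 199 without these and heterozygous array 1, and 207 to 1389 with 1 array left out. Between heterozygous and wild type it was 0 to 1 with 1 array left out. With the replicate block the 3 counts were 389, 0 and 364, and 0 neural genes passed.

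Neural genes passing between null and wild type, 0 at first, numbered 0 to 1 with 1 array left out and 3 with the score as covariate. They numbered 1 with the score of the other class, 4 without heterozygous array 1 and with the score, and 5 without it and with the score of the other class. Without heterozygous array 1 and null array 5 they were 2, Calb1 and Zic1 (0.21, adjusted p = 0.0493), the latter higher in null. Between null and heterozygous 1 gene passed in each of 5 settings: Cbln3 in the 4 with a covariate, and Cnp (0.47, adjusted p = 0.0409) without heterozygous array 1 and the null arrays with Xist signal. The neural score of heterozygous array 1 was 1.31 instead of 1.09 over the 20 genes above the filter value, and the median correlation was 0.621 by Spearman and 0.624 without that array, instead of 0.889. Low genes such as Nrgn, Tubb3, Camk2a and Olig2 were below 5.31 in all arrays, which limits what their differences show.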

Other observations

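Endothelial genes showed a different order of arrays from the neuronal and oligodendrocyte genes. Of the 6 measured, 2 passed between null and wild type, where 2.62% of all genes did. Kdr, the VEGF receptor of endothelium, was 6.85 ± 0.15 in wild type and 7.33 ± 0.18 in null (SD, n = 5 each; log2 difference 0.49, limma adjusted p = 0.00682), and passed in all 15 fits that left out 1 array. The endothelial junction gene Cdh5 rose by 0.55 (adjusted p = 0.0483) and passed in 4 of the 15. In heterozygous array 1, where most neuronal genes peaked, Kdr read 6.83 and Cdh5 4.89, close to or below the group means of 6.81 and 5.09. The mean deviation of the 6 endothelial genes was -0.14 there, and 0.49 and 0.34 in null arrays 3 and 4.

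Of the 12 choroid epithelial genes measured, 1 passed as higher and 2 as lower in null against wild type, where 2.62% of all genes passed. The water channel Aqp1 rose in null from 10.68 ± 0.03 to 11.02 ± 0.07 (log2 difference 0.34, adjusted p = 0.00457), in all 15 fits with 1 array left out. The potassium channel genes Kcne2 (-0.24, adjusted p = 0.0458) and Kcnj13 (-0.23, adjusted p = 0.0486) were lower, each passing in 4 of the 15 fits. The astrocyte gene S100b read 7.43 in heterozygous array 1 and passed between null and wild type only without that array (0.49, adjusted p = 0.0317). It was the only 1 of 13 astrocyte genes to pass in that fit, where 3.03% of all genes did. The imprinted RNA Meg3, from the list of other neuronal genes, was 0.80 higher in null without that array (adjusted p = 0.0317). It passed in 3 of the 15 fits.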
